A study of Mus musculus with 15 samples.

Results

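Ribosome-protected fragments (RPFs) were examined for 10 genes of the p53 pathway in mouse embryonic stem cells (mESCs): Trp53, which encodes p53, its inhibitors Mdm2 and Mdm4, and the p53 target genes Cdkn1a, Ccng1, Btg2, Bax, Bbc3, Sesn2 and Zmat3. The genes were chosen by name, as p53 response genes, because the ribosomal protein paralogs Rps27 and Rps27l have been linked to this response. The rule uses no measured value, although earlier results of these data were known when it was set. Each gene has 1 transcript among the 21727 transcripts of the count table, and all 10 passed the filter on low counts that left 10085 transcripts for testing. The libraries came from 9 clones of E14Tg2a.4 mESCs, grown on gelatin with LIF and serum. In 3 clones a 3xFLAG tag had been inserted by CRISPR at the C-terminus of both endogenous Rps27 alleles (Rps27-FLAG, labelled eS27-FLAG), 3 carried the same tag on both Rps27l alleles (Rps27l-FLAG, labelled eS27L-FLAG), and 3 were untagged wild-type clones (WT) of matched passage. Each line is thus represented by 3 clones grown from single cells, and no group was given a DNA-damaging agent according to the labels. All cells received cycloheximide at 100 ug/mL for 2 min before lysis. RPFs of 26 to 34 nt were sequenced without selection in all 9 clones (total RPFs) and after precipitation with anti-FLAG beads in the 6 tagged ones (IP RPFs), which makes 15 libraries, 3 in each of 5 groups. The footprint level of a gene reflects its mRNA level as well as translation, and in these bulk samples fewer expressing cells and less RNA per cell cannot be told apart. WT cells have no IP library, so binding to the beads without a tag is not measured.

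p53 is a transcription factor that is held at low activity by Mdm2, the ubiquitin ligase that targets it for degradation, and by Mdm4, a related protein that binds its activation domain. Mdm2 is itself transcribed in response to p53, which closes a negative feedback loop. When DNA damage, oncogene activity or disturbed ribosome assembly blocks Mdm2, p53 accumulates and induces genes that stop the cell cycle, trigger apoptosis, repair DNA or adjust metabolism. Ribosomal proteins that are not built into ribosomes can bind Mdm2, and Rps27l is also a known p53 target. Mouse ES cells carry much p53 protein without stress.

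The p53 response element, the DNA sequence that p53 binds, was searched around these genes to see which have a close match to it near their start. It consists of a pair of half-sites, each with purines, the core CNNG in which the inner bases are A or T, and pyrimidines. The element was read as 20 bases without a spacer, with both C and G of each core fixed and at most 1 mismatch elsewhere, which covers both strands since the pattern is its own reverse complement. Of 32851 RefSeq promoters (300 bases each, GRCm38), 0.067% held such an element, and of the 9 members with a RefSeq promoter 2 did, Ccng1 and Cdkn1a. Zmat3 has no entry among these promoters. In windows of 3000 bases on either side of the annotated start, 1.05% of 10083 transcripts held an element, and 3 of the 10 members did. The elements of these members and of Rps27l are shown 5′ to 3′ on the strand of the gene, with the 4 bases of each core in capitals.
Cdkn1a, chr17:29090928-29090947, + strand, 51 bases upstream of the start, 1 mismatch: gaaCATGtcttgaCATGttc
Ccng1, chr11:40755462-40755481, - strand, 170 bases upstream of the start, 1 mismatch: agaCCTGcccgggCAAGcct
Ccng1, chr11:40754936-40754955, - strand, intron 1, 356 bases after the start, 1 mismatch: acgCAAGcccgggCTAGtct
Zmat3, chr3:32364331-32364350, - strand, intron 1, 1328 bases after the start, 0 mismatches: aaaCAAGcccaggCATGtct
Rps27l, chr9:66946296-66946315, + strand, intron 1, 210 bases after the start, 1 mismatch: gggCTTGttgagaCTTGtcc
The element of Zmat3 matched at every base. For Trp53, Mdm2, Mdm4, Bax, Bbc3, Sesn2 and Btg2 this pattern was not found in the window, which says only that these letters do not occur there: elements with a spacer or more mismatches were not searched.

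Library totals ranged from 3972152 to 8064166 counts, with 6313827 to 8064166 in the total and 3972152 to 6673935 in the IP libraries. Counts of the members spanned 2 orders of magnitude, from 44 to 75 per library for Bbc3 to 3051 to 5220 for Trp53, so that counting error alone (1 over the square root of the count) was 11.5% to 15.1% for Bbc3 and 1.38% to 1.81% for Trp53. The sequences of the members were specific: no 28-nt window of their coding sequence occurred in another transcript of the table, apart from 4 of 1440 windows of Mdm2. The 8 pluripotency markers examined, among them Pou5f1, Nanog and Zfp42, summed to 3868 to 4859 CPM (counts scaled to a common library size), with 4629 to 4859 in the IP libraries and 3868 to 4324 in the total libraries, whereas the 8 markers of early lineages summed to 24.8 to 45.1 CPM and the 6 fibroblast markers to 11.3 to 37.3 CPM. Of the lineage and fibroblast markers, T, Foxa2, Col3a1 and Lum were at 0 in at least 1 library. Eomes (5.80 to 27.96 CPM) and Thy1 (5.29 to 24.11 CPM) passed the filter on low counts. Pax6 did not pass it but reached 20.03 CPM. The tagged gene Rps27 had 0 counts in all 15 libraries because all 225 of its windows are shared with Rps27rt, so the labels cannot be checked on it. The clones fell into 2 sets by Tet1, a DNA demethylase of ES cells: its level was 1.97 to 9.56 CPM in the 7 libraries of clones 2b12, 4a2, 4a3 and 5a1 and 298 to 420 CPM in the other 8. These libraries are all of replicate 1 and replicate 2 of Rps27l-FLAG, and line comparisons are given with and without them.

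Footprint density, the normalized CPM per kb of the counted coding sequence, placed the members far apart. In WT total RPFs Trp53 had 524, 576 and 626 CPM per kb in the 3 clones, mean 575 ± 51.0 (SD, n = 3), the 238th highest of 10082 transcripts with a known length and 22.6 times their median of 25.5. Bax, the pore-forming effector of mitochondrial apoptosis, followed at 216 ± 8.18, and Sesn2, an antioxidant inhibitor of mTORC1 signalling, at 77.5 ± 4.80. Ccng1, a cyclin that recruits a phosphatase to Mdm2, and Mdm2 itself lay together at 62.6 ± 7.38 and 61.6 ± 1.55. Zmat3, an RNA-binding zinc finger protein, and Cdkn1a, the cyclin-dependent kinase inhibitor p21, lay together at 47.0 ± 1.46 and 43.8 ± 6.83. Btg2, an antiproliferative adaptor of the deadenylase complex, and Mdm4 lay near the median of all tested transcripts at 28.6 ± 2.45 and 25.8 ± 2.81. Bbc3, the BH3-only apoptosis inducer PUMA, was lowest at 16.3 ± 2.09. The WT clones of neighbours in this order did not overlap, except for Ccng1 with Mdm2, Zmat3 with Cdkn1a and Btg2 with Mdm4.

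**Figure D1:**
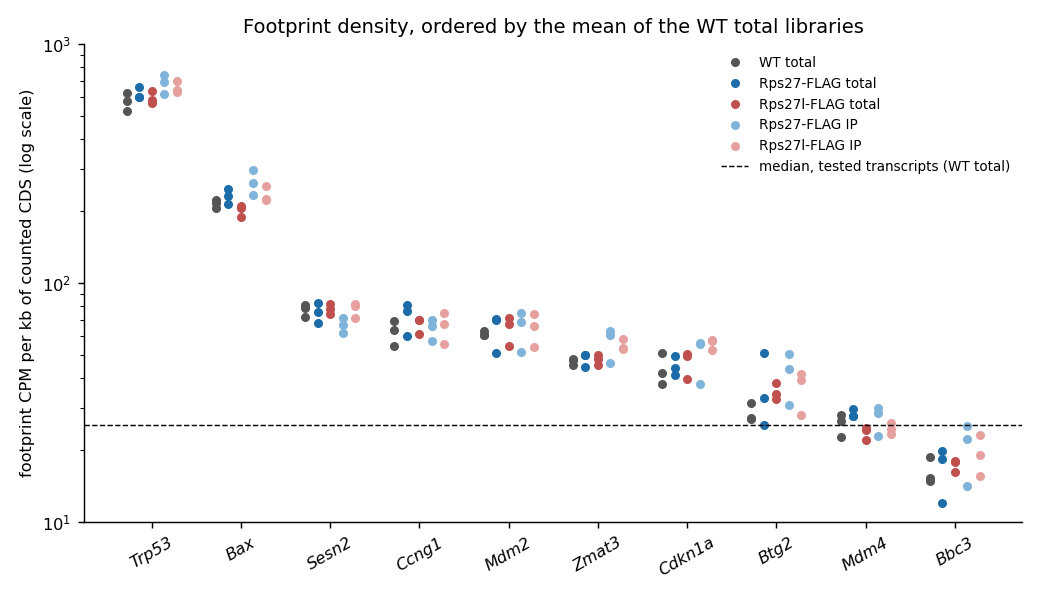
Footprint density (CPM per kb of counted coding sequence, log scale) of the 10 members in 5 groups, 1 point per library, ordered by the WT mean, with a dashed line at the median of the tested transcripts in WT total RPFs. Trp53 and Bax stand above the others in every group, and Bbc3 is lowest in the group means.

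The order of the group means was the same in the total RPFs of all 3 lines. In the IP RPFs it differed by 1 exchange of neighbours each, Mdm2 before Ccng1 in Rps27-FLAG and Cdkn1a before Zmat3 in Rps27l-FLAG, both pairs that overlapped in WT. Across the 15 libraries the density of Trp53 was 8.48 to 11.9 times that of Mdm2. Mdm2 was 1.81 to 3.00 times Mdm4, and Bax was 10.4 to 17.7 times Bbc3. Ratios of other gene pairs were not examined beside these. Over the 9 total libraries the coefficient of variation of normalized CPM was 4.42% for Zmat3, 6.25% for Sesn2, 6.95% for Trp53 and 7.84% for Bax, between 10.4% and 14.4% for Mdm4, Cdkn1a, Mdm2, Ccng1 and Bbc3, and 23.2% for Btg2. The spread of Zmat3 was below its counting error over the same libraries (5.66% to 6.38%) and that of Bbc3 barely above (11.5% to 14.3%), while for the other members it exceeded theirs.

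The first question was whether the tags or the clones changed translation of the p53 pathway, for which total RPFs were compared between lines. Trp53 had 582, 639 and 695 normalized CPM in the 3 WT clones, 667, 669 and 736 in Rps27-FLAG, and 647, 627 and 707 in Rps27l-FLAG. The 3 lines overlapped, and replicate 1 of WT was lowest of all. Mdm2 had 85.1, 85.8 and 89.2 in WT, 71.7, 100.1 and 99.0 in Rps27-FLAG, and 95.02, 77.1 and 101 in Rps27l-FLAG. The tagged clones lay on both sides of the narrow WT range, with Rps27-FLAG replicate 1 and Rps27l-FLAG replicate 2 below it. Cdkn1a, the target most often read as a gauge of p53 activity, had 15.8, 21.4 and 17.6 in WT, 18.4, 20.6 and 17.3 in Rps27-FLAG, and 21.1, 16.7 and 20.7 in Rps27l-FLAG, again with all 3 lines overlapping. Bbc3 ranged from 6.26 to 10.4 over the 9 libraries, and Zmat3 only from 36.3 to 40.6.

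**Figure D2:**
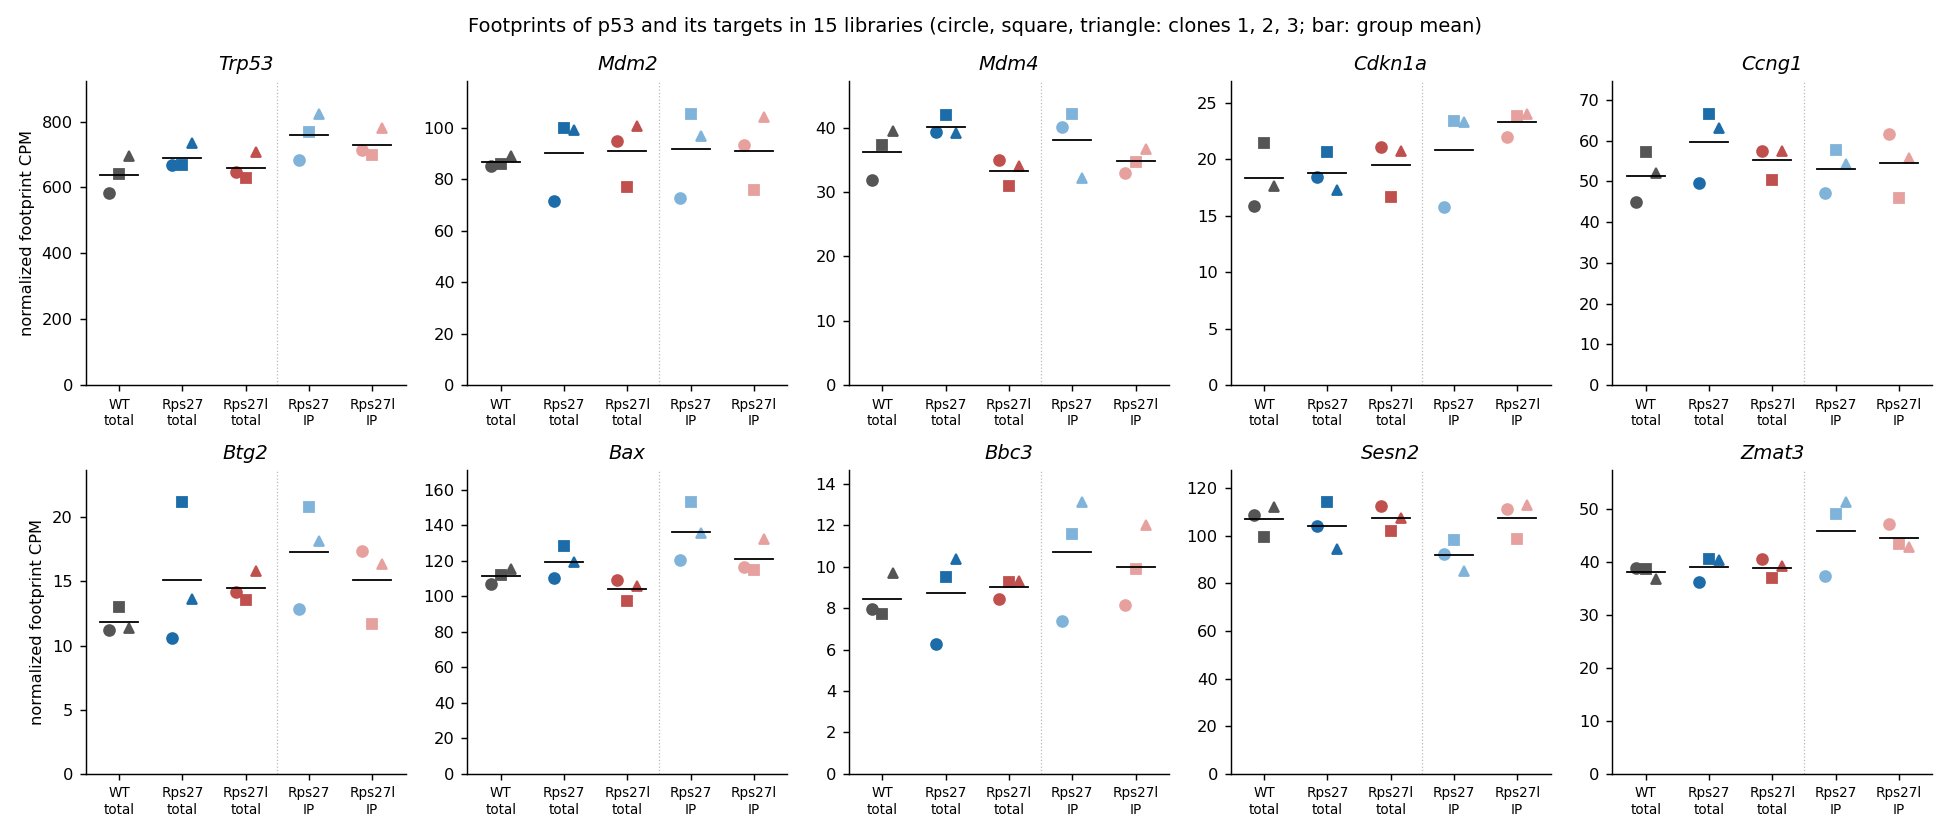
Normalized footprint CPM of each member (linear axis from 0) in the 15 libraries, grouped by line and fraction, with circles, squares and triangles for replicates 1, 2 and 3 and a bar at the group mean. The total RPFs of the 3 lines overlap for most members, while the IP points of Trp53, Bax and Zmat3 lie above the total points of the same clone.

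No member passed an adjusted p of 0.05 (edgeR's quasi-likelihood test with Benjamini-Hochberg adjustment over all tested transcripts) between any of the lines, nor did any of the 10085 transcripts (0%). An unadjusted p under 0.05 was found for 0 members in either comparison with WT and for 2 between the tagged lines, by edgeR, by voom with limma and by DESeq2 (2.92%, 5.69% and 5.75% of all tested transcripts by edgeR), and after adjustment the last 2 tools also called 0. For Trp53 the log2 fold change was 0.11 (95% interval -0.05 to 0.28) in Rps27-FLAG against WT, 0.05 (-0.12 to 0.22) in Rps27l-FLAG against WT and -0.06 (-0.23 to 0.10) between the tagged lines. For Mdm2 it was 0.06 (-0.24 to 0.35), 0.07 (-0.23 to 0.36) and 0.01 (-0.28 to 0.31) in the same order. Sesn2 was at -0.03 (-0.22 to 0.15), 0.01 (-0.18 to 0.19) and 0.04 (-0.14 to 0.23), and Cdkn1a at 0.04 (-0.30 to 0.37), 0.09 (-0.25 to 0.42) and 0.05 (-0.28 to 0.39). Zmat3 was at 0.04, 0.03 and -0.0062, Bbc3 at 0.03, 0.09 and 0.06, and Ccng1 at 0.21, 0.10 and -0.11. The median over the 10 members was 0.08, 0.06 and -0.03, beside medians of -0.0011, 0.0026 and 0.0032 over all tested transcripts. The intervals were narrowest for Trp53 and Bax and widest for Btg2, for which the interval in Rps27-FLAG against WT spanned 1.00 on the log2 scale.

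Btg2, Mdm4 and Bax were the only members whose groups did not overlap in 1 of the comparisons between lines. Btg2 had 11.2, 13.02 and 11.4 CPM in WT, 10.6, 21.2 and 13.7 in Rps27-FLAG, and 14.2, 13.6 and 15.8 in Rps27l-FLAG. The estimate for Rps27-FLAG against WT, 0.35 (-0.15 to 0.85), turned on replicate 2 and was 0.02 without it, whereas in Rps27l-FLAG all 3 clones lay above the WT clones with a log2 fold change of 0.29 (-0.21 to 0.79, adjusted p = 0.839 by edgeR). Btg2 was the only member whose groups did not overlap in that comparison, where 9.65% of all tested transcripts had groups without overlap (4.8% with Rps27l-FLAG higher). In Rps27-FLAG against WT the groups overlapped for all 10 members, while 8.52% of transcripts had groups without overlap (4.08% with Rps27-FLAG higher). Mdm4 had 31.9, 37.3 and 39.6 in WT, 39.3, 42.1 and 39.2 in Rps27-FLAG, and 35.0, 31.0 and 34.1 in Rps27l-FLAG. All Rps27l-FLAG clones were below the Rps27-FLAG clones, with WT spanning both, and the difference of -0.27 (-0.50 to -0.04) had an adjusted p of 0.803 by edgeR. Bax had 107, 112 and 115 in WT, 110, 128 and 120 in Rps27-FLAG, and 109, 97.6 and 106 in Rps27l-FLAG, again lower in all Rps27l-FLAG than in all Rps27-FLAG clones, by -0.20 (-0.36 to -0.03, adjusted p = 0.803 by edgeR). These 2 members were not overlapping in a comparison where 11.5% of all tested transcripts were not (5.77% with Rps27l-FLAG lower and 5.73% with it higher).

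**Figure D3:**
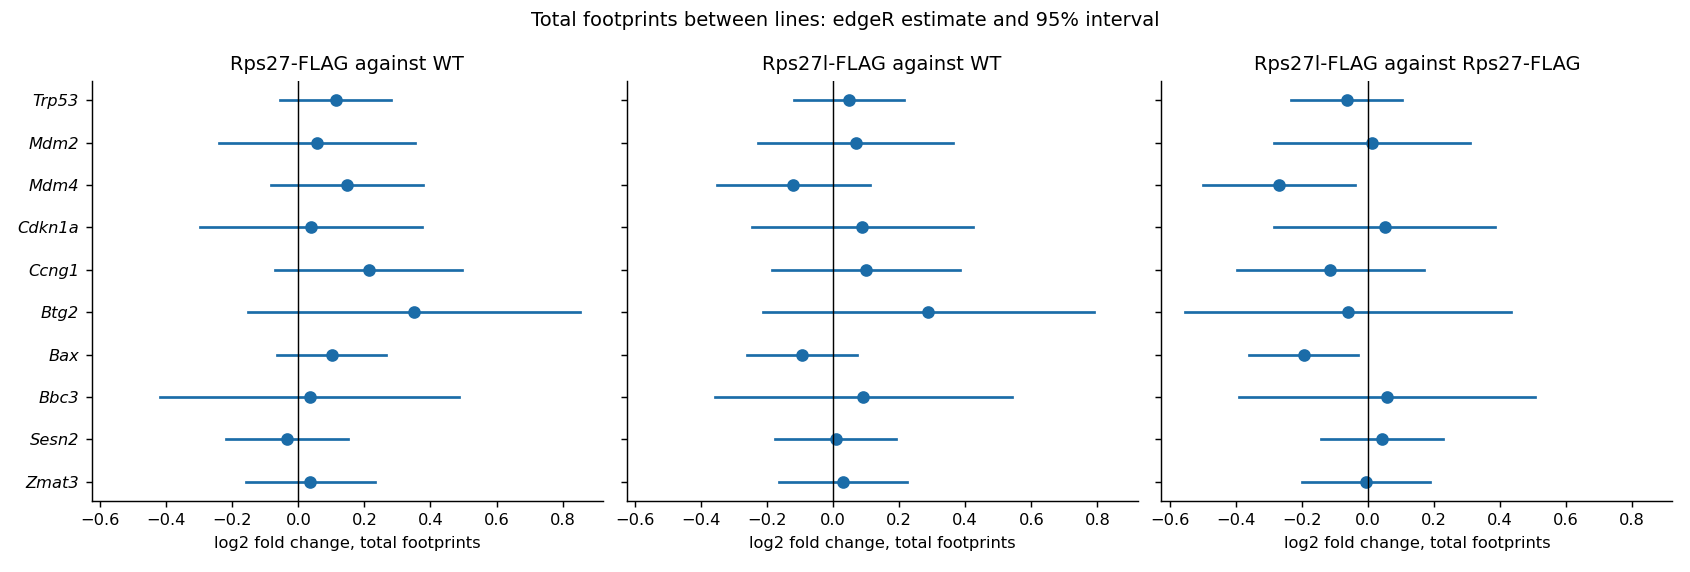
Log2 fold changes of total RPFs for each member (points) with 95% intervals (lines) in the 3 comparisons between lines, by edgeR's quasi-likelihood test. The intervals of Mdm4 and Bax between the tagged lines lie below 0 and all others include 0.

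The replicate number is a sequencing batch according to the study's sample sheet, so each difference was also read within batches. In Rps27-FLAG against WT, Trp53, Bax and Ccng1 were higher in 3 of 3 batches, Trp53 by 0.20, 0.07 and 0.08 on the log2 scale and Ccng1, at 0.21 (-0.07 to 0.50) in the test, by 0.14, 0.22 and 0.27. In Rps27l-FLAG against WT Btg2 was higher in 3 of 3 batches, by 0.34, 0.06 and 0.48. Between the tagged lines Trp53, Mdm4 and Bax were lower in Rps27l-FLAG in 3 of 3, Mdm4 by -0.17, -0.44 and -0.20 and Bax by -0.02, -0.39 and -0.17. The 3 comparisons share libraries, so these members are not separate observations. The share of all tested transcripts with the same sign in 3 of 3 batches was not determined, so these counts have no background beside them. Fitting the batch as a block called no member, although Trp53 at 0.11 (95% interval 0.01 to 0.22) in Rps27-FLAG against WT then had an unadjusted p under 0.05 and an adjusted p of 0.788 by edgeR, while it called 0.00992%, 1.43% and 1.36% of all tested transcripts in the 3 comparisons. Without the libraries low in Tet1, a setting chosen after seeing the data that leaves 2 Rps27-FLAG, 1 Rps27l-FLAG and 2 WT libraries and assumes that the lone one varies like the others, 34, 408 and 293 transcripts passed and still 0 members. There Mdm4 and Bax differed by -0.25 and -0.23 between the tagged lines, and Btg2 by 0.52 in Rps27-FLAG and 0.37 in Rps27l-FLAG against WT.

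The second question was which of these mRNAs were held by ribosomes containing the tagged protein, for which IP RPFs were compared with total RPFs of the same clones. In Rps27-FLAG, Trp53 had 684, 770 and 824 CPM in the IP beside 667, 669 and 736 in the total of the same clones, log2 ratios of 0.04, 0.20 and 0.16. Bax had 120, 153 and 136 in the IP beside 110, 128 and 120, ratios of 0.13, 0.26 and 0.18. Zmat3 had 37.4, 49.1 and 51.3 beside 36.3, 40.6 and 40.5, ratios of 0.04, 0.27 and 0.34. These 3 members were higher in the IP of every clone, least in replicate 1. The share of all tested transcripts with the same sign in every clone was not determined. Bbc3 was also higher in every clone, 7.36, 11.6 and 13.1 beside 6.26, 9.52 and 10.4, at 49 to 67 counts per library. Sesn2 and Ccng1 ran the other way in every clone: Sesn2 had 92.4, 98.4 and 85.2 in the IP beside 104, 114 and 94.4, and Ccng1 had 47.1, 57.6 and 54.3 beside 49.6, 66.7 and 63.0. Mdm2 had 72.8, 105 and 96.7 beside 71.7, 100.1 and 99.0, ratios of 0.02, 0.08 and -0.03, so the spread of Mdm2 between clones returned in their IPs while IP and total hardly differed.

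Without a term for the clone, 0 members passed in Rps27-FLAG, beside 5.67% of all tested transcripts (5.34% lower in the IP), and 0 had an unadjusted p under 0.05, as 22.1% of all tested transcripts did. Voom with limma and DESeq2, which gave an adjusted p for 8 of the 10, also called 0 at either threshold. For no member did the 3 IP libraries lie all above or all below the 3 total libraries, as they did for 28.3% of all tested transcripts (11.3% with the IP higher). The summed pluripotency markers were also higher in every IP than in every total library, and their part in the differences below was not tested. With the clone as a block, which uses that IP and total come from the same clone, 5 members passed, beside 41.2% of all tested transcripts (18.3% higher and 22.9% lower). Trp53 was higher in the IP by 0.13 (SE 0.030, adjusted p = 5.59e-05), Bax by 0.19 (SE 0.042, 3.56e-05) and Zmat3 by 0.21 (SE 0.072, 0.0104), and Sesn2 fell by 0.18 (SE 0.047, 5.87e-04) and Ccng1 by 0.16 (SE 0.062, 0.0261), by edgeR in all 5. A share of 5 in 10 is near that background. The clone term left a spread that edgeR estimated as common to nearly all transcripts (a median of 20170 total degrees of freedom, beside 8.02 without the term, from 6 libraries), so these p-values and SEs do not rest on the spread of each gene. The ratios of the 3 clones had an SD of 0.086 for Trp53. Mdm2 (0.03, 95% interval -0.07 to 0.12), Mdm4 (-0.06, -0.20 to 0.09), Cdkn1a (0.11, -0.10 to 0.33), Bbc3 (0.29, -0.02 to 0.60) and Btg2 (0.18, -0.06 to 0.42) did not pass. Without replicate 1 and without the block, Trp53 (0.18), Bax (0.22) and Zmat3 (0.31) also passed, beside 18% of all tested transcripts (6.71% higher), whereas 0 transcripts passed without replicate 2 or 3.

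In Rps27l-FLAG, Trp53 had 713, 698 and 780 CPM in the IP beside 647, 627 and 707 in the total, log2 ratios of 0.14, 0.15 and 0.14 in the 3 clones. Bax had 116, 115 and 132 beside 109, 97.6 and 106, and Zmat3 had 47.2, 43.4 and 42.9 beside 40.6, 37.0 and 39.2. Cdkn1a had 21.9, 23.8 and 24.0 beside 21.1, 16.7 and 20.7. All 4 were higher in the IP of every clone, for which no share of all tested transcripts was determined. For Bax, Zmat3 and Cdkn1a every IP library lay above every total library, which 9.11% of all tested transcripts showed (23.3% in either direction). Mdm2 had 93.3, 75.8 and 104 beside 95.02, 77.1 and 101, and Sesn2 had 111, 98.5 and 113 beside 113, 102 and 108, with ratios on both sides of 0 in each case. So did the ratios of Mdm4 (-0.09, 0.16 and 0.11), Bbc3 (-0.05, 0.10 and 0.37), Ccng1 (0.10, -0.14 and -0.05) and Btg2 (0.29, -0.21 and 0.05).

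Without a term for the clone 0 members passed in Rps27l-FLAG, beside 3.1% of all tested transcripts (0.833% higher and 2.27% lower). Of the members 1, Bax at 0.22 (95% interval 0.02 to 0.41), had an unadjusted p under 0.05 by edgeR, as did 17.4% of all tested transcripts, and 2 did by voom with limma and by DESeq2, both of which called 0 after adjustment (DESeq2 over 7 of the 10). With the clone as a block 3 members passed, all higher in the IP, beside 31% of all tested transcripts, 12% higher and 19% lower: Trp53 by 0.15 (SE 0.027, adjusted p = 1.58e-05), Bax by 0.21 (SE 0.047, 3.08e-04) and Zmat3 by 0.20 (SE 0.074, 0.0334), by edgeR with a median of 60.9 total degrees of freedom, beside 8.31 without the clone term. Cdkn1a at 0.25 (0.03 to 0.47) had an adjusted p of 0.0711 by edgeR with the block. Without the block it was at 0.26, and at 0.13 when replicate 2 was also left out. Mdm4 (0.05, 95% interval -0.12 to 0.22), Bbc3 (0.13, -0.19 to 0.45), Ccng1 (-0.01, -0.14 to 0.12), Btg2 (0.07, -0.19 to 0.33) and Sesn2 (-0.0040, -0.10 to 0.09) did not pass with the block. Mdm2 was at -0.0022 (-0.10 to 0.10) with the block and 0.0023 (-0.31 to 0.32) without it. The median of the 10 members in the blocked fit was 0.12 in Rps27-FLAG and 0.10 in Rps27l-FLAG, beside -0.0123 and -0.0297 for all tested transcripts.

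**Figure D4:**
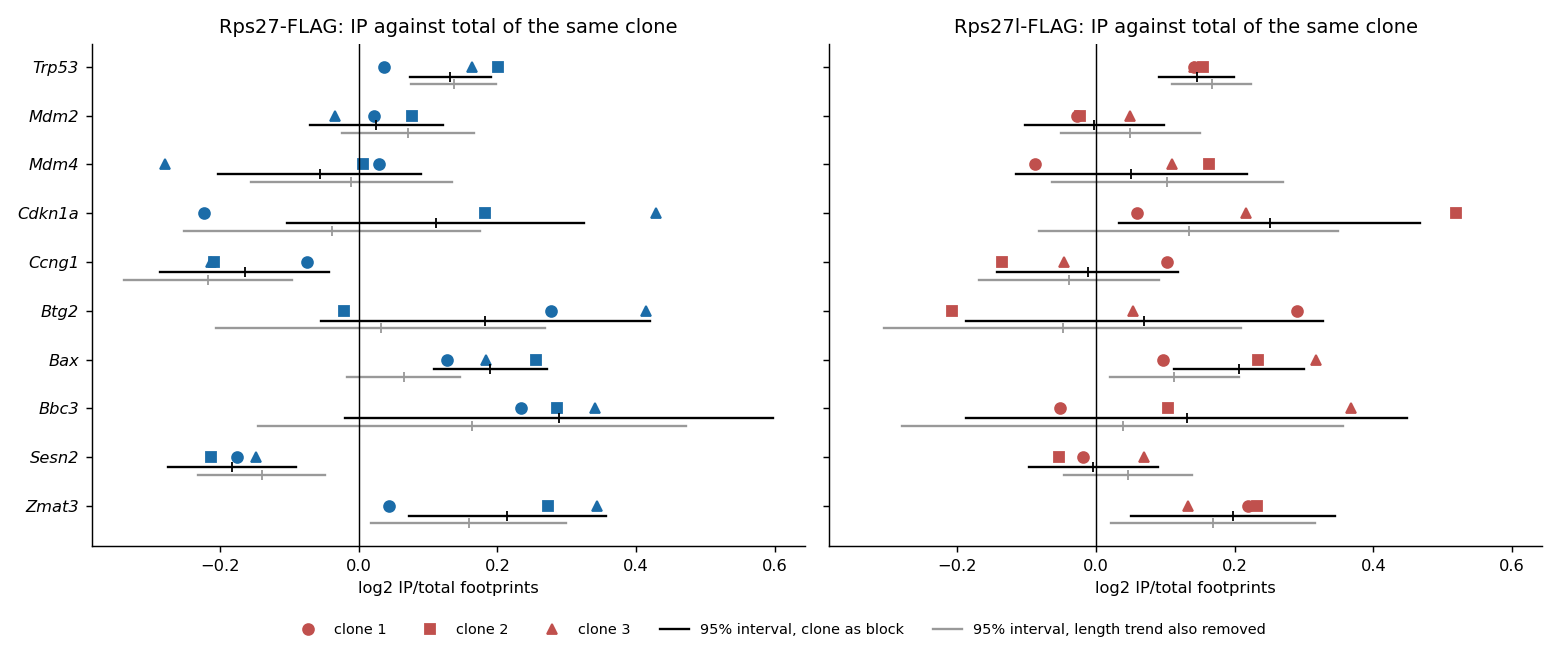
Log2 ratio of IP to total RPFs for each member in the 3 clones of each tagged line (symbols), with the 95% interval of the fit that has the clone as a block (black) and of the same fit after removal of the trend with coding sequence length (grey). Trp53, Bax and Zmat3 lie right of 0 in both lines, and Bax moves towards 0 in the grey intervals.

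Coding sequence length moved with the IP/total ratio across transcripts, and the members range from 474 nt (Btg2) to 1467 nt (Mdm2 and Mdm4). After each library's trend with length was removed, with the clone as a block, Trp53, of 1170 nt, was higher by 0.14 (adjusted p = 8.98e-05) in Rps27-FLAG and 0.17 (3.88e-06) in Rps27l-FLAG, by edgeR. Bax, of 576 nt, was then at 0.06 (adjusted p = 0.25) and 0.11 (0.0705), and Zmat3, of 870 nt, at 0.16 (0.0841) and 0.17 (0.0963), so both lost the call in both lines in this edgeR fit. In Rps27-FLAG Sesn2, of 1440 nt, stayed lower at -0.14 (adjusted p = 0.0137) and Ccng1, of 882 nt, at -0.22 (0.0031), by edgeR. This left 3 members called in Rps27-FLAG, beside 31.4% of all tested transcripts (18.4% higher and 13% lower), and 1 in Rps27l-FLAG, beside 22.7% (14.7% higher and 8.05% lower). Cdkn1a, of 477 nt, went from 0.25 to 0.13 in Rps27l-FLAG and from 0.11 to -0.04 in Rps27-FLAG. The median of the 10 members was then 0.05 in Rps27-FLAG and 0.08 in Rps27l-FLAG, beside 0.02 and 0.01 for all tested transcripts.

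The third question was whether the tagged paralogs differed in these mRNAs, for which the IP/total ratios of the 2 lines were compared in 1 fit with the clone as a term. No member passed an adjusted p of 0.05 with an absolute log2 difference over 0.25, beside 0.565% of all tested transcripts (0.466% higher and 0.0992% lower in Rps27l-FLAG), and 1 member had an unadjusted p under 0.05 by edgeR (12.1% of all tested transcripts did). Voom with limma gave 1 at that level and 0 after adjustment, and DESeq2 gave 0 at that level and an adjusted p for only 1 member. That member was Sesn2, whose log2 IP/total ratios were -0.18, -0.21 and -0.15 in Rps27-FLAG and -0.02, -0.05 and 0.07 in Rps27l-FLAG. All Rps27l-FLAG clones were above all Rps27-FLAG clones, as for 9.08% of all tested transcripts (16.2% in either direction), with a difference of 0.18 (95% interval 0.05 to 0.31, adjusted p = 0.185 by edgeR). For Trp53 the difference was 0.01 (-0.07 to 0.09) and for Mdm2 -0.03 (-0.17 to 0.11). For the others it was 0.15 (Ccng1), 0.14 (Cdkn1a), 0.11 (Mdm4), 0.02 (Bax), -0.02 (Zmat3), -0.11 (Btg2) and -0.16 (Bbc3).

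Rps27l, itself a p53 target, had 148, 149 and 149 CPM in WT, 146, 159 and 157 in Rps27-FLAG total and 133, 142 and 149 in Rps27l-FLAG total. Its IP levels of 162, 195 and 186 in Rps27-FLAG and 149, 168 and 167 in Rps27l-FLAG were higher by 0.23 and 0.19 without a term for the clone. It did not pass there (adjusted p = 0.15 and 0.248 by edgeR). With the clone as a block it passed at 0.23 and 0.19 (adjusted p = 7.51e-09 and 6.76e-05 by edgeR), beside 18.3% and 12% of all tested transcripts higher. The spread behind these blocked p-values is mostly shared by all transcripts. With the length trend removed as well, this transcript of 252 nt was at -0.0013 and 0.00043.

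The rest of the pathway is described by a pair of further lists, 25 upstream regulators of p53, all tested, and 49 other p53 target genes, of which 45 were tested. Ppm1d and Trp53inp1 are on both lists and Rps27l is on the target list, and they are counted there. The p53 family members Trp63 and Trp73 did not pass the filter on low counts. In total RPFs 0 genes of either list passed in any comparison between lines by edgeR, by voom with limma or by DESeq2. An unadjusted p under 0.05 by edgeR was found for 0, 0 and 1 regulators and 2, 6 and 5 targets, taking Rps27-FLAG against WT, Rps27l-FLAG against WT and the tagged lines in that order, beside 2.92%, 5.69% and 5.75% of all tested transcripts. With the batch as a block, Ccnd1, which encodes the G1 cyclin D1, fell by 0.61 in Rps27l-FLAG against WT (adjusted p = 0.00358) and by 0.68 against Rps27-FLAG (0.00133), and Abhd4 (0.38, 0.0456) and the ephrin receptor gene Epha2 (0.30, 0.0413) rose against WT, by edgeR, beside 1.06% of all tested transcripts lower and 0.367% higher against WT and 0.714% lower and 0.645% higher between the tagged lines. Leaving out the libraries low in Tet1 keeps only 1 Rps27l-FLAG library. In that setting Ccnd1 was at -0.53 and -0.66, Epha2 at 0.47 and Abhd4 at 0.39, which describes that single clone. Of the regulators, the deacetylase gene Sirt1 was higher in Rps27l-FLAG than in Rps27-FLAG by 0.31 (adjusted p = 0.046 by edgeR) with this block. Without the block it was also at 0.31 but did not pass (adjusted p = 0.803 by edgeR). In that unblocked fit it was at 0.16 without Rps27l-FLAG replicate 1 and at 0.14 without the libraries low in Tet1. The median of the other targets was 0.05, 0.05 and 0.02 in the 3 comparisons without the block, and that of the regulators 0.03, -0.02 and -0.05.

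Between IP and total RPFs the regulators held the larger differences. The genes of the 3 large damage kinases were lower in the IP of both lines without the block: Prkdc, the DNA-dependent kinase, by -1.07 in Rps27-FLAG and -0.78 in Rps27l-FLAG, Atm by -0.82 and -0.68, and Atr by -0.70 and -0.44, with adjusted p from 0.00128 to 0.0269 by edgeR. These calls were lost without replicate 2 or 3 of Rps27-FLAG and without replicate 1 or 2 of Rps27l-FLAG, where 0 transcripts passed, although the differences stayed about as large. With each clone left out they ran from -1.09 to -1.04 for Prkdc, -0.90 to -0.75 for Atm and -0.74 to -0.66 for Atr in Rps27-FLAG, and from -0.79 to -0.76, -0.74 to -0.64 and -0.46 to -0.43 in Rps27l-FLAG. Their coding sequences have 12384, 9198 and 7923 nt, and with the clone term and after the length trend had been taken out the differences were -0.53, -0.36 and -0.28 in Rps27-FLAG and -0.36, -0.31 and -0.10 in Rps27l-FLAG, where Atr lost the call (adjusted p = 0.0726 by edgeR). The list holds 6 genes of ribosomal or nucleolar proteins known to bind Mdm2 when ribosome assembly is disturbed, grouped here after their values were seen. In the Rps27l-FLAG IP 4 of them were higher without the block: Npm1 by 0.34, Rpl23 by 0.33, Rps3 by 0.29 and Rpl11 by 0.25 (adjusted p from 0.0201 to 0.0358 by edgeR). Rps7 (0.36) and Rpl5 (0.07) did not pass, and 0.833% of all tested transcripts passed as higher in that fit. The 6 genes were not compared with other ribosomal protein genes, and since their values were known, the number that passed is no test of the group. In Rps27-FLAG the same 4 were at 0.18, 0.22, 0.20 and 0.16 without the block and did not pass. They passed with the block, where 18.3% of all tested transcripts passed as higher. After removal of the length trend they were at 0.31, 0.19, 0.23 and 0.15 in Rps27l-FLAG, where all 4 still passed, beside 14.7% of all tested transcripts higher. In Rps27-FLAG they were then at 0.12, 0.04, 0.11 and 0.02, where Npm1 and Rps3 passed, beside 18.4% higher. Rpl5 was lower in the Rps27-FLAG IP with the block, by -0.12 (adjusted p = 2.40e-04 by edgeR) and by -0.18 with the length trend removed (1.10e-06), and higher in Rps27l-FLAG by 0.07 with the block (0.0425) but not with the trend removed (0.05, 0.297), while Rps7 passed in neither line. Of the 25 regulators tested, 3 passed without the block in Rps27-FLAG, all lower, beside 5.67% of all tested transcripts, and 7 in Rps27l-FLAG, 3 of them lower, beside 3.1%. With the block the counts were 14 in each line, 10 of them lower in Rps27-FLAG and 8 in Rps27l-FLAG, beside 41.2% and 31%. With the length trend removed as well the balance turned, to 8 higher and 7 lower in Rps27-FLAG and 9 higher and 3 lower in Rps27l-FLAG, beside 31.4% and 22.7%. The balance of all tested transcripts turned too. Their shares went from 18.3% higher and 22.9% lower to 18.4% and 13% for Rps27-FLAG. For Rps27l-FLAG they went from 12% higher and 19% lower to 14.7% and 8.05%. The kinase gene Hipk2, at -0.49 with the block in Rps27-FLAG, was then at -0.25 and no longer passed (adjusted p = 0.369 by edgeR), and without the block it was at -0.51, -0.81 without replicate 1 and -0.31 without replicate 3. The calls of the 4 genes for Mdm2-binding proteins in Rps27l-FLAG without the block were also lost without replicate 1 or 2.

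Of the 45 other targets, 1 passed without the block in Rps27-FLAG, Pltp, a lipid transfer protein gene lower by -0.28 (adjusted p = 0.0497 by edgeR, not past the threshold by voom with limma or DESeq2, and named after its value was seen), and 0 in Rps27l-FLAG, where 3 had an unadjusted p under 0.05 and voom with limma and DESeq2 called 0. With the clone as a block 13 passed in Rps27-FLAG, 6 of them higher, and 12 in Rps27l-FLAG, also 6 of them higher. Both are smaller shares of the 45 than the 41.2% and 31% of all tested transcripts that passed (18.3% higher and 22.9% lower, and 12% and 19%), which also stand beside the counts by role. By role, the calls in Rps27-FLAG were 1 higher and 1 lower of 11 apoptosis genes, 3 and 1 of 9 cell cycle genes, and 1 and 3 of 8 metabolic and redox genes. The same groups had 3 and 1, 1 and 1, and 1 and 1 in Rps27l-FLAG. None of the 6 DNA repair genes passed in this edgeR fit (0 and 1 with an unadjusted p under 0.05). In Rps27-FLAG those higher included Bid, a BH3-only activator of Bax, at 0.33, Gpx1 at 0.19 and Psrc1 at 0.17, and those lower Apaf1, the scaffold of the apoptosome, at -0.51, Sesn1 at -0.40, Fdxr at -0.36 and Gls2 at -0.31. In Rps27l-FLAG Phlda3 (0.28), Perp (0.26) and the death receptor gene Tnfrsf10b (0.18) were higher, and Trp53inp2 (-0.51), Apaf1 (-0.36), Fdxr (-0.35) and the p53 phosphatase gene Ppm1d (-0.19) lower. Without the block, leaving out replicate 1 moved Fdxr from -0.33 to -0.12 in Rps27l-FLAG and leaving out replicate 3 moved it to -0.53 and Phlda3 from 0.29 to 0.19, and in Rps27-FLAG leaving out replicate 2 moved Gpx1 from 0.18 to 0.29. With the block kept and the length trend taken out, 11 and 6 passed, beside 31.4% and 22.7%. Of the genes named here Gpx1 then lost its call in Rps27-FLAG, as did Apaf1, Fdxr, Phlda3, Perp and Ppm1d in Rps27l-FLAG. The median of the list was -0.04 and 0.03 with the block, beside -0.0123 and -0.0297 for all tested transcripts.

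As a description of which transcripts varied most like the 2 central genes over the 9 total libraries, log2 normalized CPM of Trp53 had the highest Pearson correlation with Zfp329 (r = 0.96), Azin1 (0.95) and Tyms (0.93), and that of Mdm2 with E2f3 (0.98), Lzic (0.97) and Luc7l3 (0.95). These are the extremes of 10085 transcripts over 9 libraries that share batches and, in part, the level of Tet1.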

How the data were processed

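Ribosome profiling libraries of 9 mESC clones were analysed from the deposited count table. Per the paper's methods and the submitters' processing notes, the authors trimmed reads (cutadapt 2.4), removed duplicates by molecular identifiers (UMI-tools 1.0.1), discarded noncoding RNA reads and aligned the rest (Bowtie2 2.3.4.3) to GRCm38 transcripts, keeping unique alignments. The deposited values are raw counts per transcript over the coding sequence without its first 15 and last 5 codons; reads shared by paralogs are therefore lost. A footprint count reports ribosome occupancy and does not separate mRNA level from translation. Groups, clones and replicate numbers came from the labels. IP and total libraries with the same number share a clone, and their deviations from the group means correlated with r from 0.468 to 0.79 across transcripts. The number is also the sequencing batch in the study's sample sheet, for which r between total libraries was -0.164 to 0.713. Libraries of 1 group differed beyond sampling noise (chi-square per degree of freedom at least 1.78).

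Symbols, coding lengths and positions came from GENCODE M21 (GRCm38), in which 21713 of 21727 transcripts have an entry, while the authors used another release. After removal of 13 mitochondrial transcripts, 10085 transcripts above 2 CPM in 14 or more of the 15 libraries were tested, with separate TMM scaling of IP and total libraries. Counts were tested with edgeR 4.0.16 in R 4.3.3 (glmQLFit, glmQLFTest), with Benjamini-Hochberg adjustment over all tested transcripts and a threshold of 0.05. Totals were fitted over 9 libraries by line, and IP against total over the 6 libraries of a line by fraction. The lines' IP effects were fitted over 12 libraries with the clone as a term and an absolute log2 limit of 0.25. Tmod3, a likely artefact of the precipitation according to the paper, was left out there. SE is the log2 fold change over the root of F. For ratios of single clones 0.5 counts were added. Promoters were from RefSeq. The tests recovered large known changes in counts simulated without clone or batch effects, for transcripts above the median level. That check does not cover differences as small as most given here, nor libraries that share a clone. Alternatives were voom with limma 3.58.1, DESeq2 1.42.0 (genes without an adjusted p were not counted as lost), its size factors, TMM over all 15 libraries, lower filters, blocks, removal of the length trend (loess, span 0.5) and each clone left out. Python 3.11.15 and matplotlib 3.10.9 were used for sequences and figures.

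The members and gene lists were chosen with earlier results of these data known. All members are given in each comparison. Of each list, up to 4 genes per direction past the threshold with or without the block are named, by size. SE and intervals come from the spread of each fit, which in the blocked IP fits is mostly shared by all transcripts and can be smaller than the spread between a gene's clones. Counting errors cover counting only.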

Additional observations from a re-analysis of the deposited data

Results flagged for a closer look

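Of the 25 tested regulators of p53, 2 passed in the fit that compares the IP/total ratios of the tagged lines. In that fit 0.565% of all tested transcripts passed (0.466% higher and 0.0992% lower in Rps27l-FLAG). For Prkdc the ratio was higher in Rps27l-FLAG than in Rps27-FLAG by 0.29 on the log2 scale (adjusted p = 4.04e-04 by edgeR), and for Atr by 0.26 (adjusted p = 0.00214). Both transcripts were lower in the IP than in the total RPFs of either line. With the length trend removed the differences were 0.17 for Prkdc (adjusted p = 0.0991 by edgeR) and 0.18 for Atr (0.101), while DESeq2 gave no adjusted p for either gene. Without the clone term neither passed (0.29 and 0.26, adjusted p = 1.00 by edgeR). Leaving out Rps27-FLAG replicate 2 (0.22) or Rps27l-FLAG replicate 1 (0.24) also took Atr below the limit on the fold change. The coding sequences of both are among the longest named here. The cause of the differences was not tested.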

How the results depend on the processing

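No member passed in the comparisons between lines or between IP effects under any alternative run. Counts depended on the replicate block, that is, on a term for the clone or batch, and on which libraries were used. With the block 1, 144 and 137 transcripts passed in total RPFs (Rps27-FLAG against WT, Rps27l-FLAG against WT, between the tagged lines), beside 0 without it. In IP against total RPFs the block gave 4154 transcripts and 5 members in Rps27-FLAG and 3128 and 3 in Rps27l-FLAG, and the block with the length trend removed gave 3162 and 3, and 2291 and 1. It changed no other call of a member. The comparison of IP effects gave 57 transcripts, 0 without the block, 11 with DESeq2 (adjusted over 1091 transcripts), 28 with the length trend removed and 150 without the limit on the fold change. Without the libraries low in Tet1, 34, 408 and 293 transcripts passed in total RPFs.

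With each clone left out in turn, 0 to 1817 transcripts and 0 to 3 members passed in Rps27-FLAG IP against total (1817 and 3 without replicate 1, 0 without replicate 2 or 3), 0 to 319 transcripts in Rps27l-FLAG (0 without replicate 1 or 2), and 0 to 1 in Rps27l-FLAG totals against WT or Rps27-FLAG (1 without Rps27l-FLAG replicate 2). Of the 60 differences of the 10 members in the 6 comparisons, 29 changed sign under at least 1 alternative, 8 of them with all clones kept, and all 29 were at most 0.14 in size. For Mdm2 the ranges were -0.026 to 0.20 (Rps27-FLAG against WT), -0.011 to 0.18 (Rps27l-FLAG against WT), -0.13 to 0.12 (between tagged lines), -0.014 to 0.052 and -0.020 to 0.017 (IP against total in Rps27-FLAG and Rps27l-FLAG) and -0.054 to 0.0031 (between IP effects). For Trp53 they were -0.015 to 0.11 (Rps27l-FLAG against WT) and -0.038 to 0.048 (between IP effects). The sign also changed for Mdm2 in the Rps27l-FLAG IP with the block (-0.0022), for Trp53 between the tagged lines without the libraries low in Tet1 (0.0095) and, beside the members, for Rps27l in the Rps27-FLAG IP with the block and length trend removed (-0.0013). The cause was not tested. With 3 clones a group and 44 to 162 counts per library for Bbc3, Btg2 and Cdkn1a, differences of these genes under about their intervals cannot be seen.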
